A study of Mus musculus with 23 samples.

Results

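The 9 genes described here encode parts of the complement system: C1qa, C1qb and C1qc, C2, C4b, C3, Cfb, Serping1 and Cd55. They were picked by symbol from the 24940 gene symbols that both expression tables list, with 1 transcript row per symbol. RNA was sequenced from fragments of whole tumors and from cancer-associated fibroblasts (CAFs) sorted out of tumors of the same kind, so that tumor microenvironments could be compared between commonly used mouse models. There were 15 tumors, 3 each of B16 (cell line B16-F10, melanoma), EO771 (EO771.LMB, mammary carcinoma), LL2 (Lewis lung carcinoma), MC38 (colon carcinoma) and Pan02 (pancreatic carcinoma), and 8 libraries of CAFs from 4 of these models (EO771, LL2, MC38 and Pan02, with 2 per model). All cell lines came from C57BL/6 mice and 500000 cells were injected under the skin of the flank of female C57BL/6JBomTac mice aged 10 to 15 weeks. Every tumor therefore grew from 1 cultured line in a subcutaneous site, some mice carried tumors in both flanks, and the labels do not tie a tumor to a mouse, so the p-values measure the spread between these libraries. CAFs were sorted in 2 rounds as FAP+ cells after digestion of the tumors and depletion of CD45+ leukocytes, and whether a library pooled several animals is not given in the sources used here. B16 had no CAF library.

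Complement is a cascade of plasma and tissue proteins that tags surfaces and calls in leukocytes. C1q, a hexamer of bundles built from the A, B and C chains, opens the classical pathway by activating C1r and C1s, which cut C4 and C2; factor B does the corresponding work in the alternative pathway, and both routes form enzymes that split C3. C1 inhibitor, the product of Serping1, blocks C1r and C1s, and CD55 breaks up the enzymes that split C3 on the cell surface. Macrophages are a main source of C1q in tissues, while C3, C4, factor B and C1 inhibitor are made by hepatocytes and by many stromal and epithelial cells.

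The tumor libraries held 10035173 to 21946486 counts (median 16541399). CAF libraries were deposited as RPKM, reads scaled to transcript length and library size, so their depth is unknown. The marker lists bear on the B16 label and on the sort, not on the other tumor labels. The 6 melanocyte genes summed to between 21470 and 26866 CPM (counts scaled to library size by TMM) in B16 tumors and to at most 57.4 CPM in the others, and the 9 fibroblast genes summed to between 1530 and 9733 RPKM in the CAFs. Ptprc, the gene of CD45, was at most 0.947 RPKM in any of the 8 CAF libraries. Krt8, a keratin on the epithelial list, reached 495 RPKM in EO771 CAFs and 545 RPKM in Pan02 CAFs. In EO771 CAFs the other epithelial genes of the list stood at no more than 3.18 RPKM, whereas in Pan02 CAFs Krt18 reached 483 RPKM. LL2 tumor 3, Pan02 tumor 1 and MC38 tumor 2 stood apart from the other tumors of their model in several of the 9 genes, as did CAF library 6 from library 5 of MC38 and library 4 from library 3 of Pan02. CAF libraries are named by their running number in the table.

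All 9 genes differed among the 5 tumor models (edgeR quasi-likelihood test, adjusted p from 1.55e-07 for C2 to 0.0169 for Cd55), in a data set where 91.1% of the 15722 genes tested did so. Each model was next set against the mean of the other 4. To be called, a gene needed an adjusted p below 0.05 together with a 2-fold change, 1 on the log2 scale. Of the 45 pairs of gene and model, 20 were called, against a background of 23.8% of all such pairs. The calls were uneven. In B16, 7 genes were lower (background 19.6%) and C2 and C4b were higher (background 13.1%). In Pan02, 7 genes were higher (background 18.8%), all but C2 and Cfb. Neither of the remaining genes was lower there (background 7.93%). EO771 had 3 lower genes (background 13.7%) and none higher (background 9.71%), LL2 had 1 lower (background 8.29%) and none higher (background 8.51%), and MC38 had none in either direction (backgrounds 11.2% higher and 8.24% lower). The median log2 fold change of the 9 genes was -1.66 in B16 and 1.46 in Pan02, beside -0.03 and 0.05 over all genes tested. When the models were ordered by mean level, 10 of the 36 steps between neighbouring models differed, near the background of 27.1% over the same steps of all genes.

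**Figure D1:**
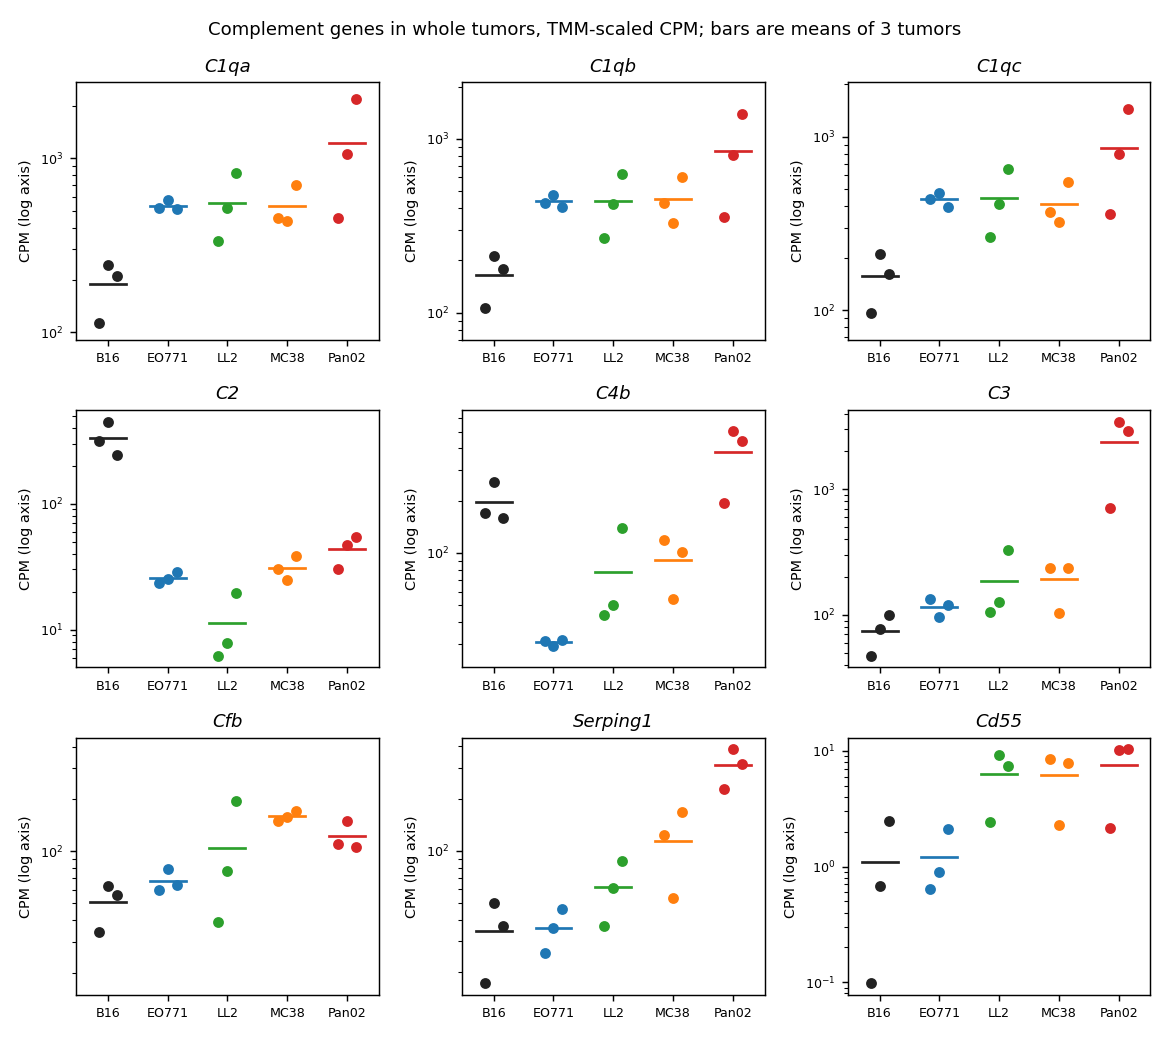
Level of the 9 complement genes in each whole tumor as TMM-scaled CPM on log axes, by tumor model; each point is 1 tumor and each bar the mean of 3. The C1q genes are lowest in B16, C2 is highest in B16 (244 to 448 CPM), and the means of C3, C4b and Serping1 are highest in Pan02, where tumor 1 lies below the other 2. For C4b, Pan02 tumor 1 lies within the range of the B16 tumors.

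The C1q chains lie side by side on the minus strand of chromosome 4 (mm10): C1qb at 136880145 to 136886177, C1qc at 136889802 to 136892914 and C1qa at 136895916 to 136898844. The bases before the starts of C1qb and C1qc are shown because these neighbours kept similar levels and the same calls in the tumors. They come from RefSeq (GRCm38.p6, chr4:136886201-136886450 and chr4:136892915-136893164, both minus strand, 5′ to 3′), and the capitals mark GAGGAA or its reverse complement, the core of the site of PU.1, a transcription factor of myeloid cells.

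C1qb: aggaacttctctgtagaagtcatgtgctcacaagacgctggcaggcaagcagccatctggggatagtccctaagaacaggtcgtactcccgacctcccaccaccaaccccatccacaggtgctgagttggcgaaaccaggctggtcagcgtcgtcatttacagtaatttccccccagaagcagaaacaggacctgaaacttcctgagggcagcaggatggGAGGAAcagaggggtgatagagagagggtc
C1qc: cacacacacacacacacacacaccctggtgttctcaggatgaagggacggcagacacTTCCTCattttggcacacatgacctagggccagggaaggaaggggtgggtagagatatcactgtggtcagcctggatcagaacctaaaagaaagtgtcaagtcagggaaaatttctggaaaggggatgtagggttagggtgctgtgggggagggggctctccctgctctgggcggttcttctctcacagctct

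The match begins 30 bases before the start that the window adjoins in C1qb and 193 bases before it, on the opposite strand, in C1qc. For C1qb the window, from 136886201, does not reach the start at 136886177 given above, so the match lies further from that start. GAGGAA occurs on either strand in 23.3% of all 32851 windows of 250 bases in that table, so the match is common. The table matched 4 of the 9 genes, C1qb, C1qc, C3 and Cd55. No window of the 4 held an interferon-stimulated response element (2.98% of all windows) or an NF-kB site (1.41%), searched on both strands.

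C1q was lowest in B16 tumors. C1qa, the A chain, stood at 113, 243 and 209.7 CPM in the 3 B16 tumors, at 511 to 576 in EO771, at 332, 516 and 821 in LL2, at 437 to 699 in MC38 and at 453, 1053 and 2194 in Pan02. No B16 tumor reached the lowest tumor of any other model, while Pan02 tumor 1 lay among the tumors of EO771, LL2 and MC38. The A chain was lower in B16 by 1.81 ± 0.42 on the log2 scale (SE; 3.52-fold, adjusted p = 0.00193), the B chain by 1.66 ± 0.38 (adjusted p = 0.00173) and the C chain by 1.70 ± 0.39 (adjusted p = 0.00179). In Pan02 the 3 chains were higher by 1.57, 1.30 and 1.37 (adjusted p = 0.00113, 0.00249 and 0.00201; all edgeR with Benjamini-Hochberg adjustment). The Pan02 calls rested on tumor 3, without which the values were 0.86, 0.75 and 0.79 (adjusted p = 0.0374, 0.0594 and 0.0509). The call of the B chain also fell below the fold limit without the 3 B16 tumors (0.95, adjusted p = 0.0304). The middle 3 models could not be ordered: their neighbouring means differed by at most 0.08 on the log2 scale, with every interval of these differences between -0.99 and 1.06. The A to B ratio of RPKM stayed between 1.05 and 1.54 over the 15 tumors, and the C to B ratio between 0.869 and 1.04.

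The macrophage markers were lower in B16, as C1q was, but did not follow C1q in every model. All 8 were lower in B16 (background 19.6%) and 3 of 8 were higher in Pan02 (background 18.8%). Of the 8, 1 was higher in EO771 (background 9.71%), 1 in LL2 (8.51%) and 1 in MC38 (11.2%). MC38 also had 1 lower (8.24%). C1q had no call in EO771, LL2 or MC38. The 8 markers summed to 221 to 302 CPM in B16 and to 451 to 1886 CPM elsewhere, with no marker at 0 in all tumors of a model. Csf1r, the receptor that macrophages need for survival, was lower in B16 by 1.87 (adjusted p = 0.00041) and higher in Pan02 by 1.60 (adjusted p = 0.000238). C1qa RPKM was between 7.36 and 16.6 times that of Csf1r in all 15 tumors, with B16 at 10.8 to 12.1. The part of macrophage number in the C1q result was not tested, and in bulk tissue fewer cells of a type and less RNA per cell cannot be told apart.

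C2, the partner of C4b in the classical pathway, was highest in B16 and lowest in LL2. It stood at 312, 448 and 244 CPM in B16, at 30.2, 46.6 and 54.7 in Pan02, at 24.6 to 38.3 in MC38, at 23.6 to 28.6 in EO771 and at 6.22, 7.88 and 19.5 in LL2. The B16 tumors did not overlap any other model, and the lowest of them was over 4 times the highest Pan02 tumor. C2 was higher in B16 by 3.74 ± 0.24 on the log2 scale (13.4-fold, adjusted p = 1.54e-08) and lower in LL2 by 2.39 ± 0.34 (5.23-fold, adjusted p = 8.41e-05), and all alternatives that kept these tumors kept both calls. In Pan02 the log2 fold change of 0.07 depended on B16, the highest group: without the 3 B16 tumors it was 1.08 (adjusted p = 0.00698).

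C2 (chromosome 17, 34862602 to 34882100, minus strand, mm10) lies next to Cfb (34856374 to 34862514), which codes for its counterpart in the alternative pathway, and the neighbours had different orders of models. In RPKM, C2 was 4.53 to 9.39 times Cfb in B16 and between 0.104 and 0.537 times Cfb in the other 12 tumors. In the GENCODE annotation of the same build, 46.9% of the exon bases of C2 also belong to Gm20547, a gene that runs across both, or to Zbtb12, and 79.5% of those of Cfb to Gm20547. Reads from these shared bases cannot be told apart by gene in the counts. Of the 12 other tested genes within 50000 bases of C2, chosen for display after the values were seen, only Neu1 was higher in B16 (1.85 ± 0.09, adjusted p = 1.71e-09) and only Cfb was lower. Neu1 codes for a lysosomal sialidase. The melanocyte genes were highest in the same B16 tumors, and their link to C2 was not tested.

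**Figure D2:**
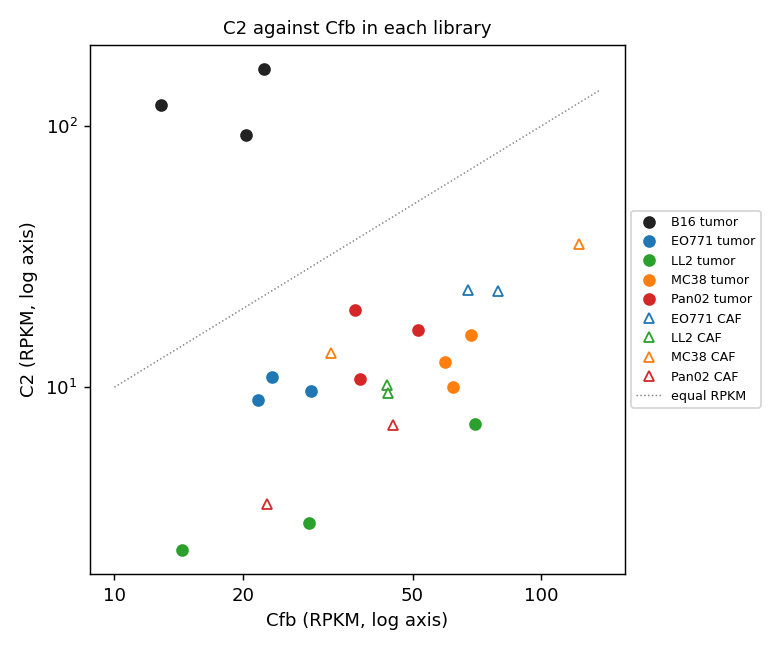
C2 against Cfb in each library, both in RPKM on log axes; filled circles are whole tumors, open triangles CAF libraries, and the dotted line marks equal RPKM. The 3 B16 tumors lie above the line and the other 20 libraries below it.

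C4b encodes mouse complement C4, and C3 is the protein on which the pathways converge. C4b stood at 194, 500.5 and 441 CPM in Pan02, at 171, 256 and 159.5 in B16, at 54.3 to 118 in MC38, at 43.8, 50.5 and 139 in LL2 and at 29.3 to 31.7 in EO771. EO771 tumors lay below all other tumors and close to each other. C4b was higher in Pan02 by 2.23 ± 0.30 (adjusted p = 2.95e-05) and lower in EO771 by 2.30 ± 0.41 (4.94-fold, adjusted p = 0.000352). The call in B16 (1.04 ± 0.32, adjusted p = 0.0122) was at the fold limit, and it was lost when B16 tumor 2 was left out (0.79, adjusted p = 0.0951), and fell below the fold limit without LL2 tumor 1 (0.99) or 2 (0.98), Pan02 tumor 1 (0.96) or MC38 tumor 2 (0.97). LL2 had no call (-0.63, adjusted p = 0.18), but without LL2 tumor 3 it was lower by 1.34 (adjusted p = 0.00926). C4b shares 34.6% of its 50-base windows with its near copy C4a, which stood at 0.521 to 2.70 CPM, so reads could be split between them, although C4a was at most 0.0533 times C4b in RPKM in any tumor.

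C3 had the widest range of model means among the 9 genes. The 250 bases before its start (RefSeq, GRCm38.p6, chr17:57228137-57228386, minus strand, 5′ to 3′) are shown because C3 had the largest rise in Pan02; the capitals mark a match to TTNCGNAA, the site of C/EBP factors, which drive acute-phase genes.

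C3: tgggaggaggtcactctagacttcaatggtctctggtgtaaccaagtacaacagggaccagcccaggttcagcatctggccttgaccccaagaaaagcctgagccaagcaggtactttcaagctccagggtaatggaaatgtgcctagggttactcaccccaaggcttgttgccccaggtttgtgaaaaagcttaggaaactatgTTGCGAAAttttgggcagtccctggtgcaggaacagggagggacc

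The match begins 45 bases before the start, and TTNCGNAA reads the same on both strands. Such a match occurs in 2.04% of the windows, and none was found in the windows of C1qb, C1qc and Cd55. C3 stood at 713, 3448 and 2927 CPM in Pan02, at 103 to 238 in MC38, at 105, 127 and 330.1 in LL2, at 95.9 to 133 in EO771 and at 47.4, 77.1 and 99.3 in B16. All Pan02 tumors were above all others. C3 was higher in Pan02 by 4.15 ± 0.37 (17.8-fold, adjusted p = 6.25e-07) and lower in B16 by 2.08 ± 0.50 (adjusted p = 0.00246), and both calls held when any 1 tumor was left out (3.77 to 4.56 and -2.34 to -1.84). The call in EO771 (-1.28 ± 0.47, adjusted p = 0.0338) was lost without EO771 tumor 1 (-1.38, adjusted p = 0.0761), 2 (-1.15, adjusted p = 0.123) or 3 (-1.30, adjusted p = 0.0906). The steps from MC38 to LL2, LL2 to EO771 and EO771 to B16 did not pass the test, with log2 differences of 0.04, 0.69 and 0.64 and intervals reaching from -1.13 to 1.86.

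Cfb, which encodes factor B, had the narrowest range of model means among the 9 genes. It stood at 149.7 to 171 CPM in MC38, at 106 to 150.0 in Pan02, at 39.3, 77.3 and 195 in LL2, at 59.5 to 78.8 in EO771 and at 34.5 to 62.8 in B16. LL2 alone spanned nearly the whole range of the other models. Cfb was lower in B16 by 1.08 ± 0.35 (adjusted p = 0.0162), and this call did not hold without B16 tumor 1 (-0.86, adjusted p = 0.0898) or without LL2 tumor 3, where the size was below the limit (-0.87, adjusted p = 0.00363). None of the 4 steps between neighbouring models passed the test (log2 differences of 0.23 to 0.62, adjusted p from 0.237 to 0.663). MC38 came close to a call (0.97 ± 0.30, adjusted p = 0.0163) and passed the fold limit with total-count scaling (1.12), with a replicate block (1.02), without LL2 tumor 3 (1.18) and, at 1.00 to 1.02, without B16 tumor 2, Pan02 tumor 2, EO771 tumor 2 or MC38 tumor 1.

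The regulators differed as well. Serping1, the gene of C1 inhibitor, stood at 228, 385 and 319 CPM in Pan02, at 123, 53.5 and 168 in MC38, at 36.7 to 87.5 in LL2, at 25.9 to 45.9 in EO771 and at 17.2 to 49.7 in B16. Pan02 tumors were above all others. Serping1 was higher in Pan02 by 2.51 ± 0.30 (5.69-fold, adjusted p = 1.00e-05) and lower in B16 by 1.43 ± 0.39 (adjusted p = 0.00521). It was lower in EO771 by 1.38 ± 0.38 (adjusted p = 0.0082), which did not hold without EO771 tumor 1 (-1.19, adjusted p = 0.0529). Serping1 in MC38 was 0.71 (adjusted p = 0.0874), and 1.05 without MC38 tumor 2 (adjusted p = 0.0196).

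Cd55 was scarce in every tumor. It stood at 0.0982, 0.684 and 2.49 CPM in B16, which are 1, 11 and 50 reads, at 0.635 to 2.09 in EO771, at 2.45, 9.18 and 7.45 in LL2, at 8.57, 2.28 and 7.80 in MC38 and at 2.17, 10.1 and 10.3 in Pan02. The first B16 value is below the level of 3 reads, which was 0.144 to 0.295 CPM over the tumors, a limit that covers counting error only. The lower level in B16 (-1.88 ± 0.74, adjusted p = 0.04) and the higher level in Pan02 (1.46 ± 0.58, adjusted p = 0.042) were both near the threshold. The B16 call was lost under 9 of the 15 removals of a single tumor (log2 from -3.31 to -1.42, adjusted p up to 0.14) and the Pan02 call under 6 (1.16 to 1.88, adjusted p up to 0.175): B16 tumors 1 and 2, LL2 tumors 2 and 3, Pan02 tumors 2 and 3, EO771 tumor 3 and MC38 tumors 1 and 3 for the first, and B16 tumor 2, Pan02 tumors 2 and 3, EO771 tumors 1 and 2 and MC38 tumor 2 for the second. The Pan02 call was also lost with total-count scaling (1.35, adjusted p = 0.0583). EO771 had no call at -1.86 (adjusted p = 0.0523), but passed with DESeq2 (-1.81, adjusted p = 0.0137) and with the replicate block (-1.86, adjusted p = 0.0318), under which MC38 was called higher too (1.49, adjusted p = 0.0398). Cd55b, a near copy that shares 8.0% of the 50-base windows of Cd55, stood at no more than 0.0626 CPM.

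Fibroblast markers were highest in Pan02, where the means of C3, C4b and Serping1 were also highest. All 9 were higher in Pan02 tumors and all 9 were lower in B16; they summed to 43208 to 49027 CPM in Pan02 and to between 393 and 13305 CPM in the other models, and none was at 0 in all tumors of a model. C4b went the other way in B16, where its mean of 195.5 CPM was above that of MC38 (91.4), LL2 (77.6) and EO771 (30.7). The step of C4b from Pan02 to B16 did not pass the edgeR test (log2 difference 0.95, adjusted p = 0.0702). Epithelial genes were also highest in Pan02 (2114 to 3344 CPM summed, against 7.47 to 1270 CPM elsewhere). The part of either cell type in the levels of C3, C4b and Serping1 was not tested. With total-count scaling in place of TMM the median of all genes moved by 0.14 in MC38 and by -0.12 in Pan02 on the log2 scale, and no call named above for these 3 genes was lost by it.

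In the CAFs, 5 of the 9 genes differed among the 4 models, beside 80.4% of the 13598 genes tested (limma with variance trend on log2(RPKM + 1), a scale that understates changes of low genes). These were the C1q chains, C2 and Cd55 (adjusted p from 1.21e-05 to 0.00882). C3, C4b, Cfb and Serping1 did not pass (adjusted p = 0.138, 0.319, 0.261 and 0.128), but without libraries 4 and 6, an alternative chosen after the values were seen, all 9 genes did, and likewise without library 5 alone. Of the 36 pairs of gene and model, 15 were called, against a background of 15.8%. EO771 CAFs had 5 higher genes (background 8.05%) and none lower (7.06%), LL2 CAFs 3 lower (5.13%) and none higher (3.89%), MC38 CAFs 5 lower (9.87%) and none higher (10.9%), and Pan02 CAFs 2 lower (8.41%) and none higher (9.73%). Of the 27 steps between neighbouring models, 7 differed, near the background of 27.2% over the same steps of all genes.

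C1q RNA was present in EO771 CAFs and nearly missing elsewhere. C1qa was at 44.0 and 58.4 RPKM in EO771 CAFs, at 3.33 and 5.29 in Pan02, at 1.76 and 0.2 in MC38 and at 0.431 and 1.06 in LL2. The 3 chains were higher in EO771 by 4.35 ± 0.33, 4.20 ± 0.18 and 4.26 ± 0.33 (adjusted p = 8.35e-05, 9.67e-06 and 9.57e-05), and lower in LL2 by 2.20 to 2.27 and in MC38 by 1.64 to 2.09, all on the log2(RPKM + 1) scale. Each of the 9 calls held without any single library. Pan02 CAFs were above MC38 CAFs for each chain (adjusted p = 0.0132, 0.00528 and 0.0168), while MC38 and LL2 did not pass the test.

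Most leukocyte and macrophage markers were also highest in EO771 CAFs. The 6 leukocyte genes summed to 36.7 and 40.4 RPKM in EO771 CAFs, to 18.6 and 30.1 in Pan02, and to between 2.45 and 3.44 in the 4 libraries of LL2 and MC38, with no gene at 0 in both libraries of a model. The Pan02 sums were mostly Cd53, at 16.1 and 28.1 RPKM against 6.89 and 7.71 in EO771; without that gene, chosen after the values were seen, the other 5 summed to 29.8 and 32.7 RPKM in EO771 and to between 1.84 and 3.22 in the other 6 libraries. Ptprc was at 0.947 and 0.902 RPKM in EO771 and at no more than 0.092 elsewhere, and Csf1r was at 5.45 and 5.15 RPKM against at most 1.14. Of the 8 macrophage genes, 5 were called higher in EO771 CAFs (background 8.05%). Together they summed to 41.5 and 46.6 RPKM in EO771 and to 45.7 and 51.0 in Pan02, where Cd14 made up 35.1 and 42.2 RPKM; the other 7 summed to 33.2 and 36.6 in EO771 and to between 8.79 and 12.9 elsewhere. The C to B ratio of C1q, steady in the tumors, ran from 0.149 in library 6 to 1.30 in library 5 of MC38, where the C chain was at 0.206 and 1.59 RPKM. C1qa was 8.09 and 11.3 times Csf1r in EO771 CAFs, beside 10.6 to 12.6 times in EO771 tumors, and 0.533 to 4.64 times Csf1r in the other CAFs. Ptprc did not separate EO771 in this way. C1qa was 46.5 and 64.8 times Ptprc in EO771 CAFs, 37.0 and 57.5 times in Pan02 and 25.4 and 50.3 times in LL2. These ratios lay within the tumor range of 20.8 to 117, while MC38 CAFs were at 251 and 2.38. Outside EO771 they rest on Ptprc values of no more than 0.092 RPKM. Whether the C1q RNA of EO771 CAFs came from leukocytes was not tested.

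**Figure D3:**
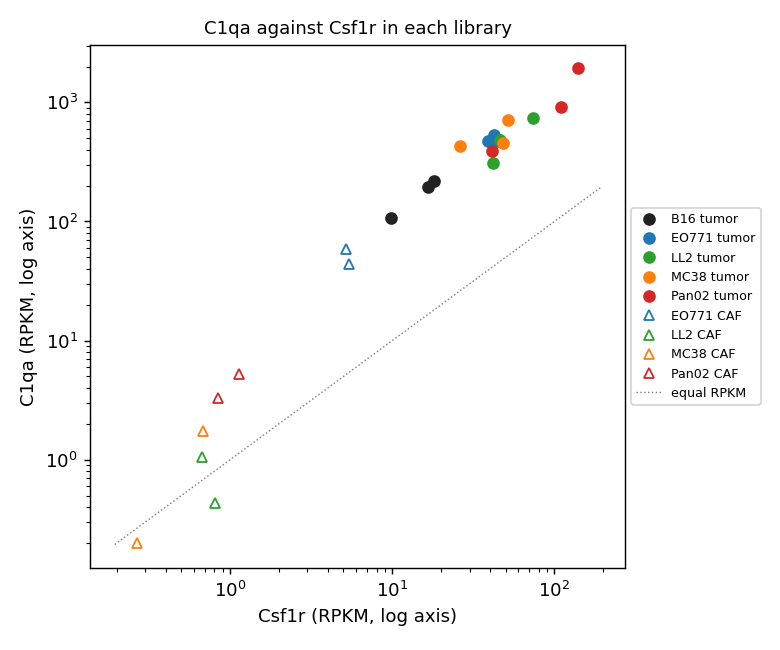
C1qa against Csf1r, a macrophage receptor gene, in each library, both in RPKM on log axes; filled circles are whole tumors, open triangles CAF libraries, and the dotted line marks equal RPKM. The tumors and the EO771 CAFs lie along one band, with C1qa 7.36 to 16.6 times Csf1r, and the other CAFs fall below it.

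Cd55, which was scarce in the tumors, was highest in EO771 CAFs. It stood at 11.1 and 13.6 RPKM in EO771, at 6.12 and 8.44 in LL2, at 3.08 and 1.00 in MC38 and at 1.73 and 0.986 in Pan02, so EO771 and LL2 did not overlap the other models. Cd55 was higher in EO771 by 1.81 ± 0.28 (adjusted p = 0.00157) and lower in Pan02 by 1.54 ± 0.28 (adjusted p = 0.0029). The lower level in MC38 (-1.15 ± 0.28, adjusted p = 0.00901) fell short of the fold limit without library 6 (-0.64). The step from LL2 to MC38 passed the test (1.52 ± 0.34, adjusted p = 0.00842), and those above and below it did not.

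C2 was at 23.5 and 23.3 RPKM in EO771 CAFs, at 35.4 and 13.5 in MC38, at 10.2 and 9.47 in LL2 and at 7.17 and 3.57 in Pan02. Pan02 CAFs were lower by 1.58 ± 0.35 (adjusted p = 0.00697), which was lost without library 4 (-1.16, adjusted p = 0.072). EO771 CAFs were higher by 1.09 ± 0.35 (adjusted p = 0.0324), a call lost without library 1, 2, 4, 6, 7 or 8 (log2 0.86 to 1.10, adjusted p up to 0.145). In MC38 the value of 0.97 (adjusted p = 0.0429) became 1.63 without library 6 (adjusted p = 0.00187) and 1.11 without library 3.

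The 4 remaining genes were abundant in all CAFs. C3 was at 286 and 282 RPKM in EO771, 289 and 232 in Pan02, 245 and 212 in LL2, and 214 and 44.3 in MC38. Apart from library 6, C3 lay between 212 and 289 RPKM in CAFs of all 4 models. Its lower level in MC38 (-1.38 ± 0.50, adjusted p = 0.0437) was carried by that library: without library 6 the difference was -0.25 (adjusted p = 0.195). The adjusted p was also above 0.05, with the value between -1.43 and -1.33, without library 1, 2, 3, 4, 7 or 8, and without library 5 the difference was -2.50.

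Serping1 was at 207 and 246 RPKM in EO771 CAFs, at 312 and 64.9 in MC38, at 126 and 119.5 in LL2 and at 87.5 and 42.1 in Pan02. No model was called (log2 from -1.36 in Pan02 to 1.14 in EO771), but this depended on MC38. Without library 6, MC38 was higher by 1.38 (adjusted p = 0.00916) and Pan02 lower by 1.74 (adjusted p = 0.000907), and without library 5, EO771 was higher by 1.51 (adjusted p = 0.00187). Cfb, at 123 and 32.1 RPKM in MC38 and between 22.8 and 79.4 elsewhere, had no call either, and was higher in MC38 by 1.38 without library 6 (adjusted p = 0.00651). C4b was at 71.8 and 21.0 RPKM in MC38, 75.1 and 79.4 in EO771, 54.5 and 52.8 in LL2 and 58.2 and 20.5 in Pan02, with no call; without library 5 it was lower in MC38 by 1.28 and higher in EO771 by 1.16. The sum of the fibroblast genes, most of it from Col1a1, Col1a2 and Col3a1, moved with the libraries that differed. It was 6551 RPKM in library 5 and 1530 in library 6 of MC38, and 3880 and 2386 in libraries 3 and 4 of Pan02. In Pan02, Dcn, Lum and Pdgfra went the other way, from 354, 80.6 and 18.4 RPKM in library 3 to 540, 84.4 and 27.5 RPKM in library 4. The part of fibroblast RNA content in the gaps between libraries was not tested.

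Tumor levels were also put on a per-length scale, as RPKM computed from the counts, and set beside the RPKM of CAFs for the 4 shared models. The tables were normalized separately, so no test was run across them. Of the 36 pairs of gene and model, both CAF libraries lay above all 3 tumors in 11, below all 3 in 14, and overlapped the tumors in 11. C1q made up 12 of the 14 pairs below. C1qa averaged 495 ± 35 RPKM (SD, n = 3) in EO771 tumors and 51.2 ± 10.2 (n = 2) in EO771 CAFs, a 9.66-fold gap, and the gap was 250-fold in Pan02, 545-fold in MC38 and 687-fold in LL2. Those folds rest on CAF levels near 0: taken from 1 CAF library at a time the gap was 204-fold or 324-fold in Pan02, 304-fold or 2668-fold in MC38 and 484-fold or 1187-fold in LL2.

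For C3, C4b and Serping1 the relation between tumor and CAF levels depended on the model. In EO771, C3 averaged 22.8 ± 3.6 RPKM in tumors and 284 ± 3 in CAFs (12.5-fold), C4b 5.71 ± 0.22 and 77.3 ± 3.0 (13.5-fold), Serping1 19.8 ± 5.6 and 226 ± 28 (11.4-fold), and Cd55 0.483 ± 0.305 and 12.4 ± 1.7 (25.6-fold). EO771 thus had the lowest C4b in tumors and the highest mean in CAFs. In LL2 the same genes were 2.91 to 6.29 times higher in CAFs. C2 was above the tumors in EO771 (2.37-fold) and LL2 (2.34-fold) CAFs, and Cfb in EO771 CAFs (2.97-fold). In Pan02 the direction turned: Serping1 averaged 161 ± 41 RPKM in tumors and 64.8 ± 32.1 in CAFs, with every CAF library below every tumor, and C2 was 15.7 ± 4.6 and 5.37 ± 2.55, again without overlap. Epithelial genes summed to 836 and 1122 RPKM in these Pan02 CAFs, against at most 501 RPKM in the other CAFs, with Krt18 at 349 and 483 RPKM (at most 101 elsewhere) and Cdh1 at 14.1 and 10.5 RPKM (at most 0.621 elsewhere); their part in the Pan02 CAF values was not tested. C3 in Pan02 overlapped, at 131, 632 and 543 RPKM in tumors and 289 and 232 in CAFs. In MC38 only the C1q genes did not overlap.

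**Figure D4:**
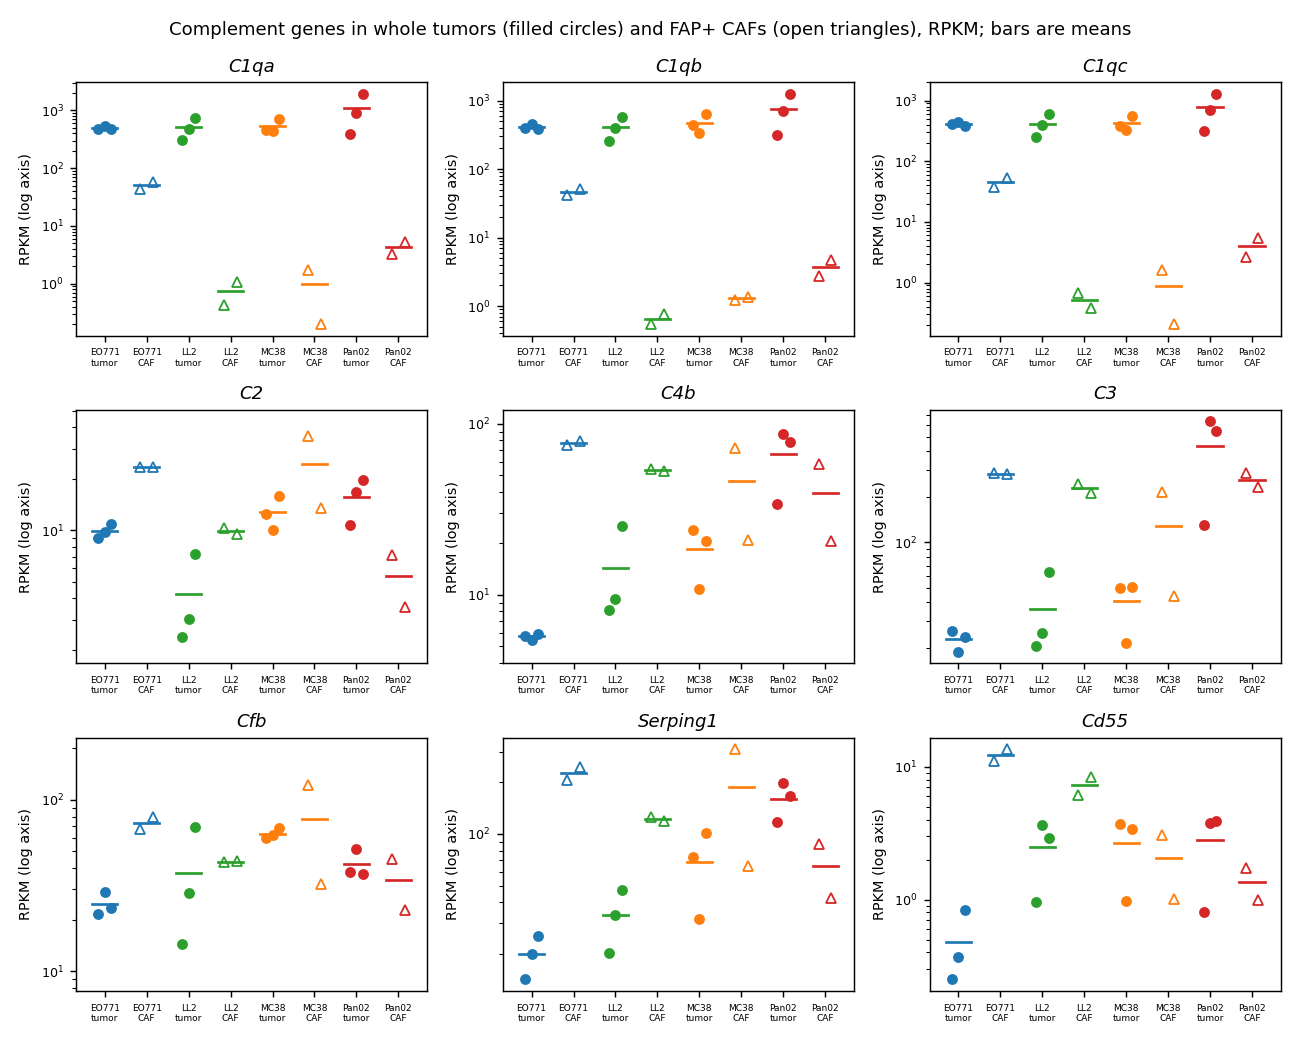
The 9 genes in whole tumors (filled circles) and CAF libraries (open triangles) of the 4 shared models, as RPKM on log axes; each point is 1 library and each bar a mean. C1q is far lower in CAFs in every model, C3, C4b and Serping1 are higher in CAFs than in tumors of EO771 and LL2, and Serping1 and C2 are lower in CAFs than in tumors of Pan02.

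Of 45 listed complement genes outside the 9, 34 were tested and 29 (85.3%) differed among the tumor models, below the 91.1% of all genes. In Pan02, 15 were higher (44.1%, background 18.8%) and none was lower, and in B16, 14 were lower (41.2%, background 19.6%) and 3 higher (8.82%, background 13.1%). Their median log2 fold change was 0.97 in Pan02 and -0.79 in B16, beside 0.05 and -0.03 over all genes. Among the starters of the lectin and classical pathways, Masp1, a protease that acts with the lectins, was lower in B16 by 5.16 (adjusted p = 3.23e-07), at 0.393 to 1.62 CPM against 123 to 222 in Pan02. Colec12, a collectin of endothelial and stromal cells, was lower in B16 by 3.53, and Fcna, a ficolin, was higher in Pan02 by 2.48. C1s1 and C1ra code for the proteases that C1 inhibitor blocks. C1s1 was higher in Pan02 by 2.51 (adjusted p = 5.74e-06), as Serping1 was, and C1ra was lower in EO771 by 2.03 (adjusted p = 3.29e-05), as Serping1 was; in B16, where Serping1 was lower too, C1ra stood at 0.07. In RPKM, Serping1 was between 0.870 and 5.54 times C1s1 over the 15 tumors.

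Of the terminal components, Hc, which encodes C5, was higher in Pan02 by 2.63 and C6 by 3.01. Clu, clusterin, a fluid-phase inhibitor of the terminal complex, was lower in B16 by 3.74 (adjusted p = 3.37e-06). Of 8 tested receptors, 6 were lower in B16 (background 19.6%), among them Itgax (1.89), a chain of complement receptor 4, and C5ar2 (1.89). Vsig4, a macrophage receptor for C3 fragments, was higher in LL2 by 2.74, at no more than 2.48 CPM.

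**Figure D5:**
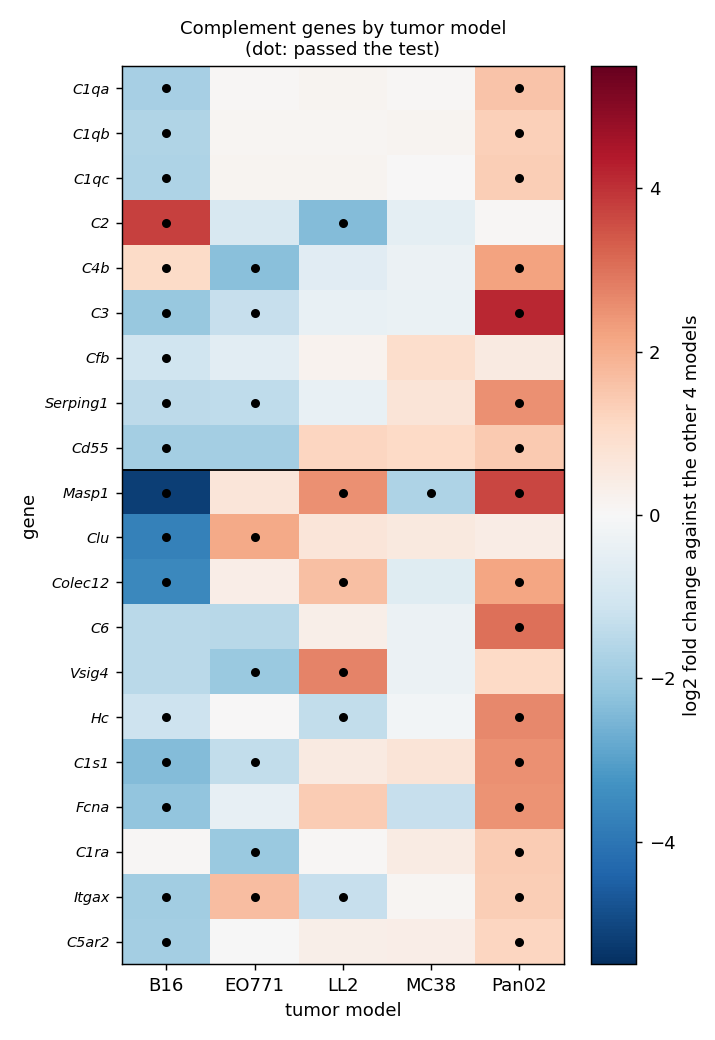
Log2 fold change of each tumor model against the mean of the other 4, as color from -5.5 (blue) to 5.5 (red), for the 9 genes (above the line) and 11 other complement genes with large called changes; a dot marks an adjusted p under 0.05 with a change of at least 1. Red with dots runs down the Pan02 column for all genes but C2, Cfb, Clu and Vsig4, and blue with dots down most of the B16 column.

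In CAFs, 23 of the 45 genes were tested and 16 (69.6%, below the 80.4% of all genes) differed among models. EO771 had 5 higher (21.7%, background 8.05%) and none lower (7.06%). LL2 had 3 higher (13.0%, background 3.89%) and 1 lower (4.35%, background 5.13%). MC38 had 4 higher (17.4%, background 10.9%) and 3 lower (13.0%, background 9.87%). Pan02 had 2 higher (8.70%, background 9.73%) and 3 lower (13.0%, background 8.41%). Masp1 was lower in MC38 by 3.06 (adjusted p = 2.86e-05), at 2.98 and 1.88 RPKM against 13.6 to 46.5 elsewhere. Vtn, vitronectin, was higher in MC38 by 2.06 (27.1 and 4.85 RPKM), and Masp2, C8g and Colec11 were higher there by 1.42, 1.34 and 1.20. Clu was lower in Pan02 by 1.79 and C4bp higher by 1.14, on at most 1.40 RPKM. Genes of leukocyte integrins and a ficolin were higher in EO771, where C1q was: Itgax by 2.19, Itgam by 1.41 and Fcna by 2.17. Itgb2, the beta chain that Itgax and Itgam share, was instead higher in LL2 by 1.33, and so was Colec12 by 1.76.

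Profiles were last compared with those of all tested genes, by the root mean square (RMS) difference of centred log2 values, as a description. In the tumors, over 15 libraries, each C1q gene had the other two as its nearest genes (RMS 0.07 to 0.13), followed by Ctss for C1qa and Laptm5 for C1qb and C1qc (0.21 to 0.27). Ptger3 and Fbln7 were among the 3 genes nearest to C3 (0.47 and 0.57), C2 was most like Plxnc1, Zdhhc15 and Kazn (0.44 to 0.54), and C4b like Mapkapk3, Tmem176a and Mob3b (0.49 to 0.51). The nearest genes of Serping1 were Adamtsl1, Pdk2 and Fap (0.38 to 0.43), the last being the marker by which CAFs were sorted. Cd55 was nearest to Cxcl12, Cadm3 and Ncf1 (0.42 to 0.52), and Cfb to Gpr18, Sema4d and Sdc3 (0.30 to 0.32). In the 8 CAF libraries the C1q genes again had each other among their nearest genes, beside Lyz2 for C1qa and C1qc and Cadm4 for C1qb. Serping1 was nearest to Cxcl14, Mmp23 and Mfap5 (0.11 to 0.15), C4b to Selenop, Pth1r and Col14a1 (0.16 to 0.24), Cfb to Gstt1, Gpc4 and Plxdc2, C2 to Acvrl1, Cspg4 and Bdh2, Cd55 to Adm, Tmem100 and Il1rl2, and C3 to Mir6978, S100a16 and Pla1a.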

How the data were processed

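Poly(A) RNA of 15 tumors and 8 CAF libraries was analysed, in 2 tables of the series. The tumor table holds expected counts for RefSeq transcripts, which the authors deposited without normalization and which take steps of 0.5. The CAF table holds RPKM values as the authors deposited them. Reads had been aligned to mm10 with STAR 2.5.0c and counted over exons with HOMER, without strand. Of 40458 transcripts, 2 named no gene; where a symbol had several transcripts, the one of largest mean was kept. There were 5 columns of no listed sample, which were not used. Counts were rounded to whole numbers, and edgeR 4.0.16 filtered (filterByExpr), scaled (TMM) and fitted them with 1 term per model. CAF transcripts that reached 1 RPKM in 2 or more libraries were fitted as log2(RPKM + 1) with limma 3.58.1. Adjusted p-values are Benjamini-Hochberg over all genes tested, and tests are 2-sided. Tumor RPKM divided counts by transcript length and by the library's sum. Intervals cover 95%. Named genes are the 9 members, the 12 listed complement genes per table with the largest called change, near copies, the 3 nearest profiles per member and single cell type markers. 1 gene that this rule names is not reported here. The members and lists were chosen with earlier results of these data known. Alternatives included DESeq2 1.42.0, other scalings, filters and transcripts, leaving out each library, and settings added after the data were seen. The fits were tested on simulated data. Other software was matplotlib 3.10.9, scipy 1.17.1, pandas 2.3.3, numpy 2.4.6, Python 3.11.15 and R 4.3.3. No tumors of a model agreed within sampling noise (chi-square per degree of freedom 5.13 or more).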

Additional observations from a re-analysis of the deposited data

Results flagged for a closer look

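For 12 pairs of gene and model, every tumor lay on one side of the mean of the other 3 shared models and both CAF libraries on the opposite side, on the log2(RPKM + 1) scale; the differences between tumors and CAFs were not tested. Values are the mean tumor difference minus the mean CAF difference. In EO771 they were negative, with tumors below and CAFs above the mean of the other models, for C1qa (-4.64), C1qb (-4.44), C1qc (-4.47), Cd55 (-3.03), Serping1 (-2.90), C4b (-2.78), C3 (-2.37) and Cfb (-1.50). For Serping1, C4b, C3 and Cfb the CAF side of EO771 did not pass the limma test (adjusted p = 0.111, 0.167, 0.292 and 0.235). Not every other CAF library lay below EO771: library 5 of MC38 was above both EO771 libraries for Serping1 (312 RPKM) and Cfb (123 RPKM), as was library 3 of Pan02 for C3 (289 RPKM). For C1q the tumor side was small, -0.29, -0.24 and -0.21 for the A, B and C chains, and the tumors of EO771, LL2 and MC38 could not be ordered. In LL2, C3 was at -1.30, with a CAF side of 0.24 that did not pass the limma test (adjusted p = 0.743). Only MC38, with library 6 at 44.3 RPKM, had a lower mean of C3 in CAFs than LL2, whose libraries were at 245 and 212 RPKM. In tumors, the step of C3 from MC38 to LL2 did not pass the test (log2 difference 0.04). In Pan02 they were positive, with tumors above and CAFs below the mean of the other models, for Serping1 (3.55), C2 (2.44) and Cfb (1.04). For Cfb, all Pan02 tumors (36.7 to 51.5 RPKM) lay below all MC38 tumors (59.7 to 68.5 RPKM), and for C2 the tumors of these models overlapped. CAF library 3 of Pan02 lay above library 6 of MC38 for Serping1 (87.5 and 64.9 RPKM) and Cfb (44.9 and 32.1 RPKM). The Pan02 difference of Serping1 was 2.19 in tumors and -1.36 in CAFs. In CAFs, neither this difference nor that of Cfb in Pan02 passed the limma test (adjusted p = 0.0647 and 0.157).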

How the results depend on the processing

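Of 20 tumor calls of a gene in a model, 11 were kept under every alternative that gave a value, as were 11 of 15 CAF calls, and none was reversed. DESeq2, total-count scaling, the absence of a filter, the longest transcript and a replicate block gave 20 to 23 tumor calls. Without the 3 B16 tumors, fewer models are compared, and 5 of the 9 genes differed, 11 pairs of gene and model were called and 5 steps between neighbouring models passed. Leaving out single tumors gave 6 to 14 such steps, and leaving out LL2 tumor 3, Pan02 tumor 1 and MC38 tumor 2 together, chosen after seeing the data, gave 19. In CAFs, single removals gave 5 to 9 genes that differed and 6 to 14 steps; without libraries 4 and 6, also chosen after seeing the data, these were 9 and 21. With 1 library of a model left, it was assumed to vary like the others. Same-numbered tumors did not deviate together (30 pairs, correlations from -0.17 to 0.26, median 0.03), so the numbers do not pair them; with the replicate block, 23 pairs of gene and model were called and 12 steps passed. No paired analysis was possible because the CAF columns carry no replicate number. The comparison of CAF and tumor RPKM kept all 36 values within their spread with the longest transcript and with TPM, chosen after seeing the data. Counting precision is limited for Cd55, with 1 to 178 reads per tumor, and the 2 CAF libraries per model limit all CAF tests.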

Other observations

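Ratios between genes of 1 library, in RPKM, differed between B16 and the other tumors, as values with no test. C4b was 1.53 to 3.43 times C3 in B16 and 0.138 to 0.259 times C3 in Pan02. C1s1, the gene of the protease C1s, was 0.172 to 0.408 times C1ra, the gene of its partner C1r, in B16, and at least 0.868 times C1ra in the other 12 tumors. Cfb was 0.0675 to 0.289 times C3 in Pan02 and 0.703 to 2.86 times C3 in the other models. Of the 15722 genes tested, 385 had a larger log2 fold change in B16 than C2.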
